A study of Mus musculus with 35 samples.

Results

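The slow-cycling effect in the basal epidermis, meaning the expression difference between label-retaining cells (LRC) and non-label-retaining cells (nLRC), was compared between tail skin and back skin of mice. The quantity compared was (tail LRC minus tail nLRC) minus (back LRC minus back nLRC) on a log2 scale, so a positive value means that a gene stood higher in LRC, relative to nLRC, in tail than in back. The members are the 12 libraries of the 4 groups named in that formula, 3 libraries each, out of 35 libraries in the series. All 4 groups came from K5-tTA/pTRE H2B-GFP mice on the C57BL/6J background, 2 months old, that had eaten doxycycline chow for 2 weeks. In this transgene pair the keratin 5 promoter drives a tetracycline transactivator that switches on a green histone, and doxycycline stops its synthesis, so that each division dilutes the label. The promoter is active in keratin 5-positive cells, which in skin include follicle and sebaceous gland cells besides the interfollicular basal layer, and the label thus reports on any of them. Basal layer cells were sorted by flow cytometry from trypsinised epidermis. LRC are called slow-cycling and nLRC fast-cycling by the labels, and the study asked how such populations compare between skin sites. The sources used here do not name the antibodies of the sort. No label ties the libraries to separate animals, and the p-values therefore rest on a spread between samples that could be purely technical.

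The basal layer of mouse epidermis holds the stem cells that renew it. In back skin it is interrupted by densely packed follicles, and slow- and fast-cycling basal cells lie in separate territories between them, for which Dlx1 and Slc1a3 serve as markers. Tail epidermis is divided into scales, which make hair-type keratins such as Krt31 and Krt36, and interscales, which differentiate much as back epidermis does; slow-cycling tail cells lie mainly in the interscales and fast-cycling ones in the scales. Hair follicles carry their own stem cells in the bulge, and the upper follicle, or isthmus, connects them to the epidermis and to the sebaceous gland.

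Reads were counted over whole genes, exons and introns together, and are given as CPM, reads relative to the library total and scaled between libraries by the trimmed mean of M-values. The tables held 14463777 to 20560481 reads per library in back and 10975551 to 14093720 in tail. Keratin 5 and keratin 14, which define basal keratinocytes, were high in all 12 libraries. Krt5 stood at 6835, 7251 and 6679 CPM in tail LRC, 16939, 15434 and 11619.5 in tail nLRC, 14079, 15124 and 15109.8 in back LRC and 16172, 16916 and 15043 in back nLRC. The tail LRC libraries were the lowest of the 12 for Krt5, and the LRC effect in tail was -1.08 ± 0.18 (SE, adjusted p = 0.00386). Tail LRC library 2 had a read in 26480 genes against 19107 to 22625 in the other tail libraries. In addition, 4 features at which ribosomal RNA-like reads pile up (Zc3h7a, Peak1, Filip1l and Gphn) took 12.1 to 18.6% of the reads in tail and 0.110 to 0.345% in back. Leaving those 4 features out gave 451 genes past the main test described next.

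In tail skin, cells sorted as LRC carried more RNA of many hair follicle genes than nLRC, such as Lrig1 and Sox9, whereas in back skin 0 of the listed follicle genes rose in LRC and Sox9, Ctgf and Sostdc1 fell. With 1 library left out in turn, these 3 back calls held without back nLRC library 1 or tail LRC library 1 or 2, and those of Sox9 and Ctgf also without tail nLRC library 2 (largest adjusted p = 0.147 for Sox9, 0.17 for Ctgf and 0.216 for Sostdc1). That of Sostdc1 was also lost with median-of-ratios scaling (adjusted p = 0.0515) and with the 4 ribosomal RNA-like features left out (adjusted p = 0.0508). On exon-only values, that of Sox9 was lost at log2(TPM + 0.1) (adjusted p = 0.0524) and that of Ctgf after rescaling (adjusted p = 0.0638). All 3 were lost without the tail replicate 3 pair. Genes of the tail nLRC, among them Msx2, Dlx3 and Mt4, separated the populations in tail and did not pass the test in back. Of 15560 genes tested by edgeR's quasi-likelihood test (adjusted p under 0.05), 452 had LRC effects that differed between the tissues, which is 2.9% of all. The tail effect was the higher in 362 genes (2.33%) and the lower in 90 genes (0.578%), and 2243 genes had an unadjusted p under 0.05. The median difference over all tested genes was 0.03. In these bulk libraries, fewer cells of a type and less RNA per cell cannot be told apart.

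The effects within the tissues were of unequal extent. In tail 872 genes passed the test (5.6%), 557 higher in LRC (3.58%) and 315 lower (2.02%). In back 130 genes passed (0.835%), 14 higher (0.09%) and 116 lower (0.746%). These counts hung on single libraries: in tail 400 genes passed without nLRC library 1 and 467 without LRC library 3. In back 50, 62 and 46 passed without LRC libraries 1, 2 and 3, and 41 and 45 without nLRC libraries 2 and 3. Treating the replicate number within a tissue as a block gave 1780 genes for the difference (1217 higher in tail), 3785 for the tail effect and 791 for the back effect. Without the tail replicate 3 pair, whose file names carry another run label than the other tail libraries, 211 genes passed for the difference, 306 in tail and 62 in back. The share of calls in which tail was the higher was 80.1% here, 69.5% by DESeq2, 68.4% with the block, 66.2% on exon-only values rescaled in the same way, and 82.7% and 84.6% on exon-only values as deposited, at log2(TPM + 1) and log2(TPM + 0.1).

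Most of the 362 genes with the higher effect in tail were called in tail and not in back, namely 215 of them. A further 52 were called in back and not in tail, 31 were called in both tissues in opposite directions, and 61 were called in neither tissue alone. The remaining 3, the cytokine receptor Il20ra (4.15 in tail and 0.99 in back), the transmembrane serine protease Tmprss4 (1.63 and 0.68) and the protease inhibitor Spink5 (1.71 and 0.83), were higher in LRC in both tissues and by more in tail. Il20ra and Tmprss4 were named after their values were seen. Of the 90 genes with the lower effect in tail, 74 were called in tail alone, 14 in neither tissue, Igfbp3 in back alone and Npr3 in both in opposite directions. Only 47 genes were called in both tissues at all, 8 higher in LRC in both, 7 lower in both and 32 in opposite directions. Across the 15560 genes, which are not independent replicates, the tail and back effects had a Pearson r of -0.0521, and across the 9529 genes at an average log2 CPM of at least 3 it was -0.000118.

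**Figure D1:**
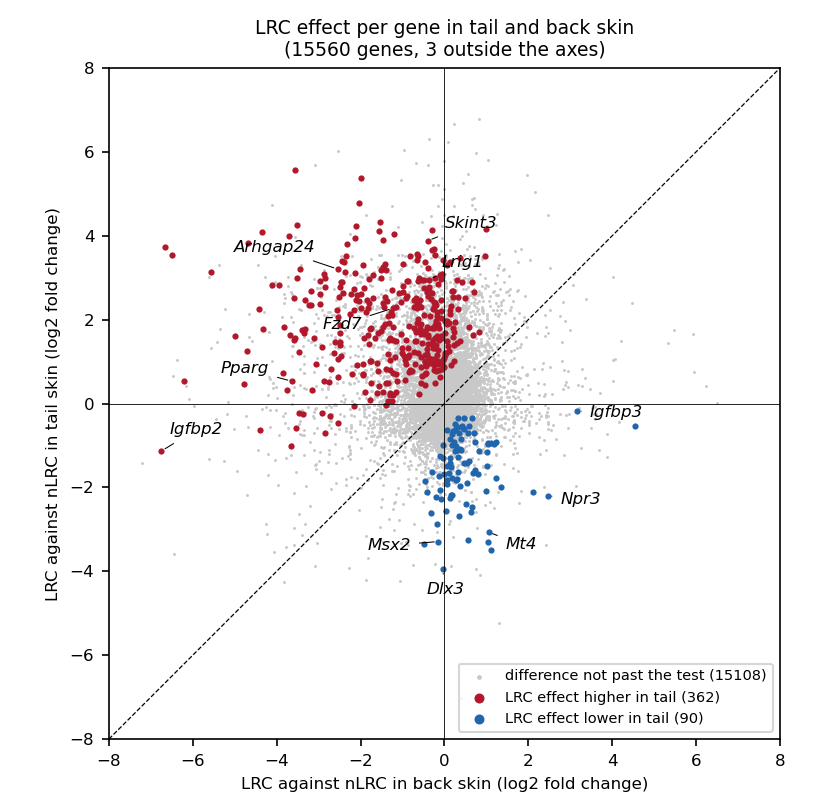
LRC effect (log2 fold change, LRC against nLRC) in back skin on the horizontal axis and in tail skin on the vertical axis, 1 point per gene tested. The 362 genes with the higher effect in tail (red) lie above the dashed line of equal effects and the 90 with the lower effect (blue) below it, and grey points are the other 15108 genes; 3 genes lie outside the axes.

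The length of the genes and the intron reads moved with these calls. The median length was 68.1 kb for the 362 genes, 23.4 kb for the 90 and 22.9 kb for all tested genes. The share of reads from introns was estimated per library as a median over 4076 genes with long introns. It was 34.5 ± 6.59% (SD, n = 3) in tail LRC and 24.4 ± 6.64% in tail nLRC. In back it was 44.7 ± 5.18% in LRC and 43.1 ± 5.19% in nLRC. In each replicate number of both tissues the LRC library had the larger share. On the deposited exon-only TPM, rescaled between libraries, 312 of the 314 higher genes with a TPM value kept their direction and 208 were called, with a median difference of 1.62 against 2.57 on all reads. All 90 lower genes kept their direction and 72 were called, with a median of -1.64 against -1.95.

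A gene stands here for each way in which the tissues differed, with the 250 bases upstream of its start from RefSeq (GRCm38.p6). Lrig1 is shown for an effect found in tail alone and higher in LRC (promoter chr6:94700146-94700395, minus strand), Fzd7 for opposite effects (chr1:59481897-59482146, plus strand), Msx2 for an effect in tail alone and lower in LRC (chr13:53472781-53473030, minus strand) and Igfbp3 for an effect in back alone (chr11:7213924-7214173, minus strand). Each is printed 5′ to 3′ on the strand of the gene. For Lrig1, Fzd7 and Msx2 the RefSeq start differs from the start of the GENCODE positions given below. The Msx2 stretch lies within the GENCODE gene, that of Lrig1 reaches into it, and that of Fzd7 ends short of the GENCODE start. Capitals mark TGTGGT, the core bound by RUNX factors, ACAAAG, bound by SOX factors and overlapping the core of TCF/LEF sites, ACGTG, the core of HIF sites and of some E-boxes, and GGGCGG, the GC box, each on either strand.
Lrig1: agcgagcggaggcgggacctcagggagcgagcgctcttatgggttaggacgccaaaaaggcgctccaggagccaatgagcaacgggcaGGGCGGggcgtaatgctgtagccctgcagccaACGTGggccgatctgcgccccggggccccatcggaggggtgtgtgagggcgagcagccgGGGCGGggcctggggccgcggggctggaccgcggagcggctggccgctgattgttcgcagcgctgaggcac
Fzd7: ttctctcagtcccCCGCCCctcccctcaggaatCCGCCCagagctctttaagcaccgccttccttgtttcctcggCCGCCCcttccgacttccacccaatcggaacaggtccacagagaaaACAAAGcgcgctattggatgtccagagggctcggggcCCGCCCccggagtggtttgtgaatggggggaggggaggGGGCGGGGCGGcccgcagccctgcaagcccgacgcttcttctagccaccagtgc
Msx2: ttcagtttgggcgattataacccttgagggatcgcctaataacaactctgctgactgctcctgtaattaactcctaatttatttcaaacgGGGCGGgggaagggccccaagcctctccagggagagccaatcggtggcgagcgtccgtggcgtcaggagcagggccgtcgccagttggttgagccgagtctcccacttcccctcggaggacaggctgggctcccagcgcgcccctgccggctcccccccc
Igfbp3: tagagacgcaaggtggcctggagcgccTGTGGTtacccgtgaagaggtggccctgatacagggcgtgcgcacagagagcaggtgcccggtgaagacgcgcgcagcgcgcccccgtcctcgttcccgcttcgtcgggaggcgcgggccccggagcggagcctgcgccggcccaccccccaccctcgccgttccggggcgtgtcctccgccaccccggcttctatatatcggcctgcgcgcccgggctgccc
The Lrig1 stretch held 1 ACGTG and 2 GC boxes, that of Fzd7 1 ACAAAG and 6 GC boxes counting overlapping ones, that of Msx2 1 GC box and that of Igfbp3 1 TGTGGT. These letters are common: TGTGGT was found in 14.2% of 27025 mouse promoters of this length, ACAAAG in 16.5%, ACGTG in 16.6% and the GC box in 32.9%. Among the 11046 promoters of tested genes the shares were 10.6%, 12.1%, 21.003% and 57.1%. Of the genes with the higher effect in tail, 253 had a promoter in the RefSeq table, and the shares were 6.72%, 10.3%, 15.02% and 61.7%. Of those with the lower effect 63 did, with 7.94%, 12.7%, 30.2% and 50.8%.

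Lrig1 (chr6:94604529-94700158, minus strand; positions of genes are GENCODE M21 on mm10) encodes a transmembrane inhibitor of EGF receptor signalling and marks stem cells of the upper follicle. It stood at 165, 113 and 157 CPM in tail LRC, 18.2, 16.3 and 21.7 in tail nLRC, 239, 235 and 209 in back LRC and 253, 279 and 342 in back nLRC. Tail nLRC was the only low group, and LRC and nLRC did not overlap in tail, whereas in back the LRC libraries lay slightly below all nLRC ones. The LRC effect was 2.95 ± 0.18 (SE, adjusted p = 7.1e-06) in tail and -0.36 ± 0.17 (SE, adjusted p = 0.624) in back, and the difference was 3.31 ± 0.24 (SE, adjusted p = 4.01e-05). Over all tested genes, the 3 LRC libraries lay above the 3 nLRC ones in 13.7% in tail and 6.38% in back, and below them in 13.1% and 8.08%.

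Fzd7 (chr1:59482424-59486955, plus strand), a receptor for Wnt ligands, stood at 82.2, 53.2 and 63.97 CPM in tail LRC, 12.7, 15.9 and 12.6 in tail nLRC, 13.3, 14.5 and 11.5 in back LRC and 22.4, 33.7 and 35.7 in back nLRC. The groups separated in both tissues, in opposite directions, with tail LRC the highest of the 4 and its nLRC at the level of back LRC. The effects were 2.27 ± 0.22 (SE, adjusted p = 8.94e-05) in tail and -1.22 ± 0.21 (SE, adjusted p = 0.0187) in back, a difference of 3.50 ± 0.30 (SE, adjusted p = 0.000107).

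Msx2 (chr13:53466884-53473074, minus strand), a homeobox transcription factor of skin appendages, stood at 3.09, 2.05 and 2.52 CPM in tail LRC, 30.9, 21.6 and 22.9 in tail nLRC, 4.83, 8.45 and 5.78 in back LRC and 4.09, 9.26 and 7.72 in back nLRC. Tail nLRC stood apart, above the other 3 groups, and the back groups overlapped. The effect was -3.29 ± 0.34 (SE, adjusted p = 0.000167) in tail and -0.14 ± 0.30 (SE, adjusted p = 0.987) in back, a difference of -3.15 ± 0.45 (SE, adjusted p = 0.00203).

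Igfbp3 (chr11:7206086-7213923, minus strand) encodes a secreted protein that binds insulin-like growth factors. It stood at 45.4, 108 and 46.2 CPM in tail LRC, 56.8, 107 and 62.02 in tail nLRC, 326, 197 and 293 in back LRC and 33.4, 22.2 and 35.7 in back nLRC. Back LRC was the highest group, every library above all others, and the tail groups overlapped. The effect was -0.18 ± 0.35 (SE, adjusted p = 0.796) in tail and 3.16 ± 0.38 (SE, adjusted p = 0.00232) in back, a difference of -3.34 ± 0.51 (SE, adjusted p = 0.0028).

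**Figure D2:**
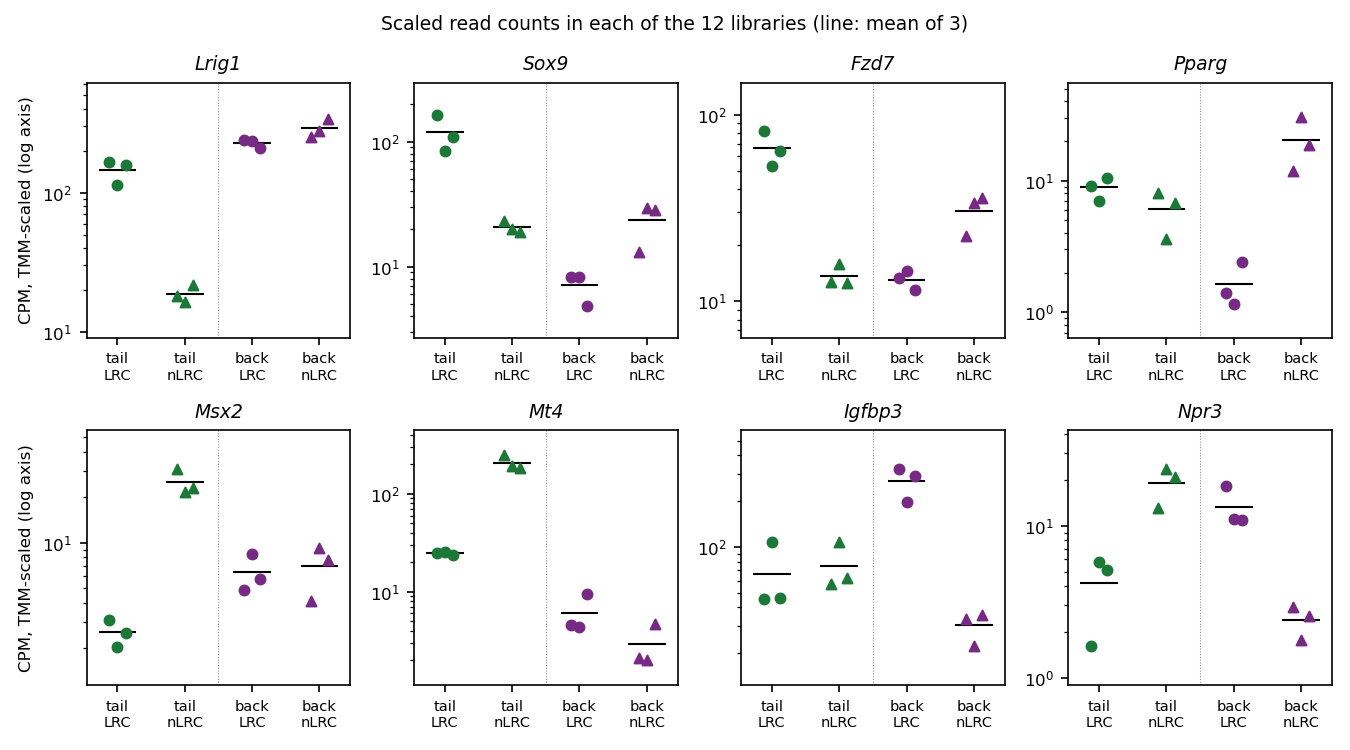
CPM per library (log axis) of Lrig1, Sox9, Fzd7, Pparg, Msx2, Mt4, Igfbp3 and Npr3. Circles are LRC and triangles nLRC, green is tail and purple is back, points run from replicate 1 to 3 and the line is the mean. LRC stand above nLRC in tail and below them in back for Sox9 and Fzd7, and the reverse for Npr3.

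Opposite effects in the tissues were found for 32 genes, 0.206% of those tested, 31 of them higher in LRC in tail and lower in LRC in back. Their effects ranged in size from 1.18 to 3.33 in tail and from 0.842 to 3.32 in back. The 10 with the smallest p of the difference were Dpysl3, Msrb3, Nebl, Fzd7, Arhgap24, Ptprk, Adgrl2, Igsf9, Acsf2 and Alcam, and the other 22 differed by 2.52 to 5.95 in size. Of the 10, each kept the call of the difference with any library left out, whereas their back calls did not all hold. The count of 32 was 11, 16 and 16 without back LRC libraries 1, 2 and 3, 14 and 12 without back nLRC libraries 2 and 3, 20 without tail LRC library 3 and 12 without the tail replicate 3 pair. It was 93 by DESeq2, 208 with the block, 167 without a low-count filter, and 21, 23 and 13 on exon-only values at log2(TPM + 1), at log2(TPM + 0.1) and after rescaling. Of the 10, 5 were called in opposite directions without back LRC library 1 or 3 or back nLRC library 2 or 3, and 4 on rescaled exon-only values.

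Dpysl3, a dihydropyrimidinase-like protein of the cytoskeleton, had the smallest p. It stood at 167, 139 and 159 CPM in tail LRC, 18.2, 18.3 and 14.6 in tail nLRC, 0.899, 1.44 and 1.196 in back LRC and 3.06, 3.07 and 4.05 in back nLRC. Neither tissue had overlapping groups, and both back groups were far below tail LRC. The difference was 4.70 ± 0.26 (SE, adjusted p = 4.56e-06), from 3.19 in tail and -1.51 in back. Arhgap24 (chr5:102481391-102897937, plus strand), a GTPase-activating protein for Rac, stood at 169, 80.2 and 190.0 CPM in tail LRC, 15.5, 11.1 and 20.8 in tail nLRC, 11.97, 16.8 and 12.4 in back LRC and 53.8, 108 and 78.3 in back nLRC. The LRC libraries lay above nLRC in tail and below them in back, and the difference was 5.75 ± 0.50 (SE, adjusted p = 0.000107).

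Several of the others encode surface and adhesion proteins. The receptor tyrosine phosphatase Ptprk had a difference of 5.32 ± 0.47 (SE, adjusted p = 0.000107), with effects of 2.36 in tail and -2.96 in back. The adhesion receptor Adgrl2, a latrophilin, differed by 4.74 ± 0.43 (SE, adjusted p = 0.00013), from 3.33 and -1.41. Alcam, an immunoglobulin-family adhesion molecule, differed by 5.06 ± 0.49 and Igsf9, of the same superfamily, by 2.69 ± 0.25. Nebl, which binds actin filaments, differed by 4.73 ± 0.41, the methionine sulfoxide reductase Msrb3 by 4.89 ± 0.40 and the acyl-CoA synthetase Acsf2 by 3.46 ± 0.33. In every one of these the back effect was a decrease in LRC.

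The single gene with the reverse pattern was Npr3 (chr15:11839896-11907287, minus strand), the clearance receptor for natriuretic peptides. It stood at 1.63, 5.77 and 5.14 CPM in tail LRC, 12.9, 23.4 and 20.8 in tail nLRC, 18.1, 11.04 and 10.8 in back LRC and 2.91, 1.78 and 2.56 in back nLRC. LRC lay below nLRC in tail and above them in back with no overlap in either. The effects were -2.20 ± 0.41 (SE, adjusted p = 0.00753) and 2.46 ± 0.41 (SE, adjusted p = 0.0168), and the difference of -4.66 ± 0.58 (SE, adjusted p = 0.000845) was also the largest negative one among genes at an average log2 CPM of at least 3, predicted genes aside.

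Among called genes at an average log2 CPM of at least 3, predicted genes aside, the largest positive differences belonged to the extracellular matrix protein Hmcn1 at 6.06 ± 1.03, the ether lipid enzyme Agmo at 5.95 ± 0.65, Rims1, a protein of vesicle release, at 5.87 ± 0.85, and the homeobox gene Irx1 at 5.78 ± 0.78. Adgrl3, another latrophilin, followed at 5.67 ± 0.69, the membrane protein Heg1 at 5.62 ± 0.59, the transcriptional coactivator Eya2 at 5.59 ± 0.87, the forkhead factor Foxc1 at 5.51 ± 0.81 and the metalloprotease Pappa at 5.36 ± 0.91. Igfbp2, Arhgap24 and Ptprk complete the 12. Adgrl3 stood at 379, 264 and 378 CPM in tail LRC, 16.2, 19.9 and 23.03 in tail nLRC, 7.42, 28.6 and 21.996 in back LRC and 33.5, 35.8 and 102 in back nLRC. It was highest in tail LRC, and its back groups were separated the other way, without passing the test in back (adjusted p = 0.215). The call of Hmcn1 was lost on exon-only TPM, with or without rescaling (largest adjusted p = 0.085), that of Rims1 on exon-only TPM (adjusted p = 0.0507), and that of Pappa without the tail replicate 3 pair (largest adjusted p = 0.0588).

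At the same expression limit, the largest negative differences after Npr3 were those of the prostaglandin E2 receptor Ptger3 at -4.34 ± 0.86, the methyltransferase-like gene Mettl7a3 at -4.23 ± 0.65 and the metallothionein Mt4 at -4.12 ± 0.46. The homeobox genes Dlx3 and Msx2 had -3.91 ± 0.82 and -3.15 ± 0.45, the transmembrane glycoprotein Gpnmb -3.81 ± 0.90, the binding protein Igfbp3 -3.34 ± 0.51, the transcriptional inhibitor Id2 -3.24 ± 0.58, the Rac-regulating chimaerin Chn2 -3.06 ± 0.37, the insulin receptor substrate Irs1 -3.05 ± 0.60 and the pentraxin Nptx1 -3.01 ± 0.73. Mt4 (chr8:94137197-94139031, plus strand) is a metallothionein of stratified epithelia and stood at 24.98, 25.5 and 23.9 CPM in tail LRC, 248, 191 and 186 in tail nLRC, 4.61, 4.32 and 9.44 in back LRC and 2.12, 2.004 and 4.69 in back nLRC. The lowest tail nLRC library was more than 7 times any library of the other groups. The calls of Gpnmb and Nptx1 were the weakest of these. That of Gpnmb held only without back LRC library 1 or 3 or back nLRC library 2 among the 12 left out in turn (adjusted p 0.0124 to 0.203), and that of Nptx1 only without back LRC library 2, back nLRC library 3 or tail nLRC library 2 (0.0343 to 0.146). Ptger3 and Id2 lost theirs without the tail replicate 3 pair (largest adjusted p = 0.0893 and 0.0557).

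Of the 32 genes named for their size or their opposite effects, 15 overlap another gene on the opposite strand and 2 another on the same strand. Among all tested genes with a known position, 46.5% overlap another on the opposite strand. The sources used here do not say whether the deposited counts used the strand, and the reads of such neighbours cannot be told apart without it.

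**Figure D3:**
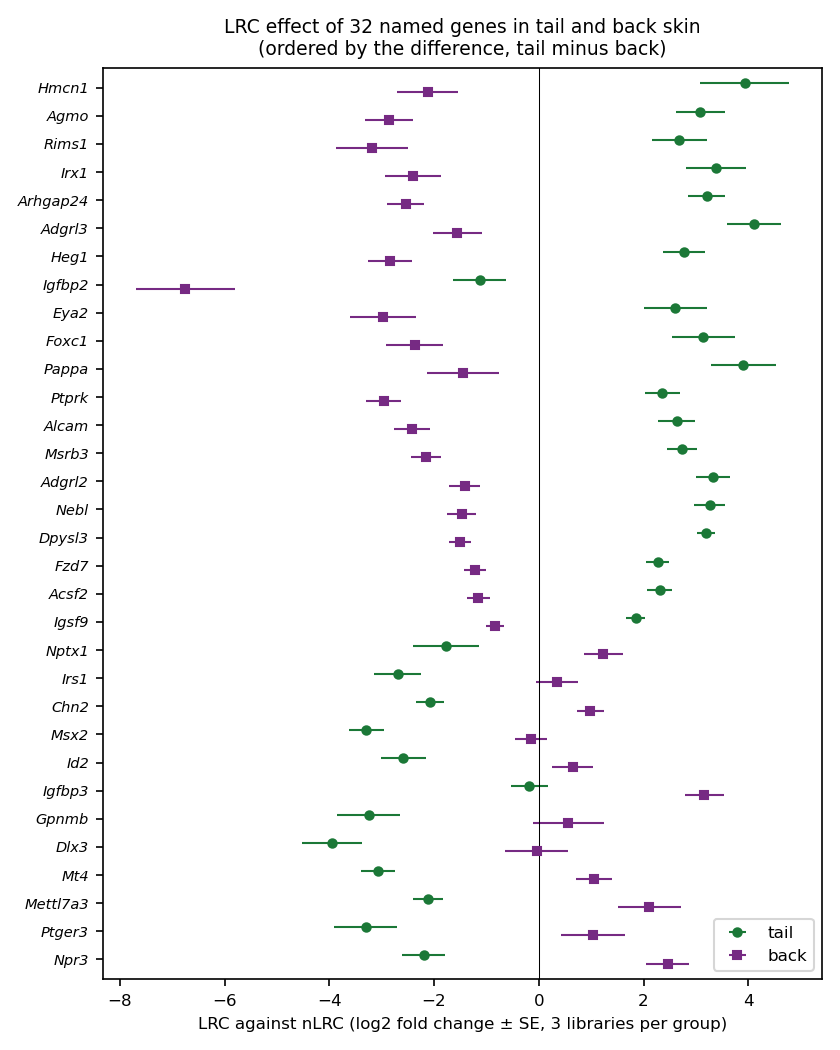
LRC effect in tail (circle) and back (square) as log2 values with standard errors, 3 libraries per group. Shown are the 32 genes named by size or by opposite effects, ordered by the difference, tail minus back. Tail estimates stand right of the back ones wherever the difference is positive, as for Arhgap24 at 5.75, and left of them wherever it is negative, as for Npr3 at -4.66.

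Genes of the upper follicle made up the list with the largest share of calls. Of its 14 genes, all tested, 10 had the higher effect in tail and 0 the lower (11 and 1 at an unadjusted p under 0.05), with a median difference of 2.89 against 0.03 for all genes. DESeq2 likewise called 10 and 0. In tail 10 were higher in LRC and 0 lower, and in back 0 were higher and 1, Sostdc1, was lower (0 and 7 at an unadjusted p under 0.05, 0 and 3 by DESeq2). Among the 10 were Lrig1, Plet1, Krt79, Cst6, Atp6v1c2, Defb6, Gata6, Sostdc1 and Krt80. The summed level of the list was 855 to 1554 CPM in tail LRC and 289 to 377 in tail nLRC, without overlap, and 940.5 to 1171 in back LRC and 916 to 1330 in back nLRC, with overlap. Between 8 and 10 of the genes passed with any library left out, and 6 without the tail replicate 3 pair.

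Krt79, a keratin of the follicle opening and duct, stood at 515, 202 and 411 CPM in tail LRC, 91.3, 50.3 and 63.8 in tail nLRC, 15.7, 29.5 and 20.3 in back LRC and 33.9, 60.02 and 75.2 in back nLRC. Tail LRC was the highest group and back LRC lay below back nLRC. The difference was 3.82 ± 0.53 (SE, adjusted p = 0.00158). Gata6, a transcription factor of the sebaceous duct and upper follicle, differed by 5.24 ± 0.73 (SE, adjusted p = 0.00158), from 4.04 in tail and -1.21 in back. Atp6v1c2, a proton pump subunit, differed by 3.23 ± 0.39 (SE, adjusted p = 0.000617) and had a back effect of 0.14. Sostdc1, a secreted antagonist of BMP and Wnt ligands, differed by 3.31 ± 0.43 (SE, adjusted p = 0.001), with effects of 1.89 in tail and -1.42 in back (adjusted p = 0.0498). Krt80 stood at 140.0, 115 and 134 CPM in tail LRC, 22.7, 17.7 and 26.6 in tail nLRC, 333, 491 and 467 in back LRC and 254, 385 and 395 in back nLRC. In back it was higher than in either tail group, in both populations, and the difference of 2.22 ± 0.30 came with a low value in tail nLRC.

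Bulge genes showed a similar but less complete pattern. Of 27 tested of 28 genes, 9 had the higher effect in tail and 1 the lower, with a median difference of 1.63. In tail 12 were higher in LRC and 3 lower, and in back 0 were higher and 2, Sox9 and Ctgf, were lower (1 and 10 at an unadjusted p under 0.05, 0 and 6 by DESeq2). With the replicate block 16 were higher and 2 lower. Leaving out 1 library gave 7 to 10 higher, and leaving out the tail replicate 3 pair gave 6 higher and 0 lower. Cd34, a surface marker of the bulge, had 0 to 12 reads per library and was not tested.

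Sox9 (chr11:112782224-112787760, plus strand), a transcription factor of bulge stem cells, stood at 163, 83.7 and 109 CPM in tail LRC, 23.2, 19.9 and 18.9 in tail nLRC, 8.32, 8.26 and 4.85 in back LRC and 12.97, 29.3 and 28.1 in back nLRC. Tail LRC was the highest group, and the back groups were separated with LRC below. The effects were 2.52 ± 0.33 (SE, adjusted p = 0.000885) in tail and -1.71 ± 0.33 (SE, adjusted p = 0.0293) in back, a difference of 4.23 ± 0.46 (SE, adjusted p = 0.000384). Runx1 and Barx2, both transcription factors of the follicle, differed by 3.96 ± 0.50 (SE, adjusted p = 0.00093) and 3.45 ± 0.38 (SE, adjusted p = 0.000417). Foxc1 differed by 5.51 ± 0.81, Lhx2 by 3.82 ± 0.75 and the calcium-responsive factor Nfatc1 by 1.13 ± 0.22. Fzd3, a Wnt receptor, differed by 1.63 ± 0.26, the secreted protein Dkk3 by 1.81 ± 0.42 and the matrix protein Ctgf by 5.53 ± 0.91. Id2 went the other way, with a difference of -3.24 ± 0.58 (SE, adjusted p = 0.00858). Krt15, a keratin of the bulge and the basal layer, rose in tail LRC by 1.99 ± 0.39, and its difference was 1.87 ± 0.54 (SE, adjusted p = 0.0976). Postn, a matrix protein of the bulge, rose in tail LRC by 3.08 ± 0.62 with a difference of 3.06 ± 0.83 (SE, adjusted p = 0.077).

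In the sebaceous gland list calls were found in both tissues, and most were lower in LRC. Of 16 genes, all tested, 4 had the higher effect in tail and 0 the lower (median 0.73), and in back 0 were higher in LRC and 5 lower (Pparg, Cers4, Mgst1, Soat1 and Plin2). At an unadjusted p under 0.05 these counts were 6 and 0 for the difference and 0 and 10 in back, and by DESeq2 5 and 0, and 0 and 10. In tail 1, Acsbg1, was higher in LRC and 3 were lower (Scd1, Soat1 and Far2), against 2 and 8 at an unadjusted p under 0.05 and 1 and 8 by DESeq2. The summed level was 513 to 654 CPM in tail LRC, 762.3 to 1332 in tail nLRC, 627 to 765 in back LRC and 717 to 1226 in back nLRC. Pparg (chr6:115360951-115490399, plus strand), the nuclear receptor of sebocyte and fat cell differentiation, stood at 9.11, 6.98 and 10.5 CPM in tail LRC, 7.98, 3.58 and 6.76 in tail nLRC, 1.41, 1.15 and 2.39 in back LRC and 11.9, 30.6 and 18.6 in back nLRC. Back LRC was the lowest group and did not overlap back nLRC, while the tail groups overlapped. The effects were 0.53 ± 0.39 (SE, adjusted p = 0.436) in tail and -3.64 ± 0.42 (SE, adjusted p = 0.00215) in back, a difference of 4.17 ± 0.57 (SE, adjusted p = 0.0014).

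The ceramide synthase Cers4 differed by 2.65 ± 0.49 (SE, adjusted p = 0.00987), from -1.01 in tail and -3.67 in back, and the microsomal enzyme Mgst1 by 2.95 ± 0.67 (SE, adjusted p = 0.0328), from -0.59 and -3.54. Acsbg1, an acyl-CoA synthetase, differed by 1.91 ± 0.41 (SE, adjusted p = 0.0263) with a tail effect of 1.96. Soat1, which esterifies cholesterol, fell in LRC in both tissues, with effects of -2.98 ± 0.63 in tail and -3.60 ± 0.68 in back, and its difference was 0.62 ± 0.89 (SE, adjusted p = 0.809). The calls of Pparg and Cers4 were lost on rescaled exon-only TPM (largest adjusted p = 0.116 and 0.12), that of Pparg also on log2(TPM + 0.1) (adjusted p = 0.0954) and that of Cers4 also without the tail replicate 3 pair (adjusted p = 0.0811). The median of the list was 0.041 on rescaled exon-only TPM. Mgst1 and Acsbg1 each lost the call in 8 of the 12 fits with a library left out (largest adjusted p = 0.0881 and 0.0793); Mgst1 held only without back nLRC library 1, back LRC library 2, tail nLRC library 1 or tail LRC library 2, and Acsbg1 only without back nLRC library 1, back LRC library 3, tail LRC library 2 or tail nLRC library 2. Between 2 and 5 members passed with a library left out, 2 of them without back LRC library 1, back nLRC library 2 or 3, tail LRC library 1 or 3 or tail nLRC library 3. Without the tail replicate 3 pair 1 passed.

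Of 12 markers used for slow- and fast-cycling basal cells, all tested, 3 fell in tail LRC (Dlx2, Krt14 and Krt36) and 0 rose, and in back 1, Igfbp3, rose and 0 fell. At an unadjusted p under 0.05 the counts were 2 higher and 5 lower in tail and 4 and 1 in back, and by DESeq2 0 and 5, and 1 and 0. Dlx1 and Slc1a3 did not pass within either tissue: Dlx1 had an LRC effect of -0.92 ± 0.33 (SE, adjusted p = 0.128) in tail and 1.22 ± 0.35 (SE, adjusted p = 0.188) in back, and Slc1a3 one of -0.97 ± 0.45 (SE, adjusted p = 0.213) in tail and -0.56 ± 0.43 (SE, adjusted p = 0.861) in back. Dlx1 stood at 3.499, 3.91 and 4.43 CPM in tail LRC, 6.24, 10.1 and 6.02 in tail nLRC, 2.42, 1.73 and 2.26 in back LRC and 0.641, 1.07 and 1.01 in back nLRC. Its LRC libraries lay below nLRC in tail and above them in back, without overlap in either, and the difference was -2.14 ± 0.48 (SE, adjusted p = 0.0323). That call held among the 12 fits with a library left out only without back LRC library 2 or tail nLRC library 3 (largest adjusted p = 0.087). Of the 12 population markers, 0 had the higher effect in tail (1 at an unadjusted p under 0.05, 0 by DESeq2) and 3 the lower, namely Dlx1, Dlx2 and Igfbp3. Of 5 tested genes of common sort antigens and the transgene promoter 0 passed (1 lower at an unadjusted p under 0.05, 1 lower by DESeq2).

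Distal-less and Msh homeobox genes, transcription factors of appendages and epidermis, gave the clearest lower differences. Of 6 tested of 8, 4 had the lower effect in tail and 0 the higher (5 and 0 at an unadjusted p under 0.05, 5 and 0 by DESeq2), with a median difference of -2.65. In tail 4 were lower in LRC and 0 higher, and in back 0 passed in either direction (2 higher at an unadjusted p under 0.05, 0 by DESeq2). The summed level was 28.7 to 30.9 CPM in tail LRC, 97.1 to 144 in tail nLRC, 12.8 to 18.9 in back LRC and 9.82 to 16.8 in back nLRC. Dlx3 (chr11:95120119-95125296, plus strand) stood at 1.87, 3.17 and 2.12 CPM in tail LRC, 29.5, 53.6 and 27.9 in tail nLRC, 0.731, 2.4 and 0.399 in back LRC and 1.18, 2.05 and 0.479 in back nLRC. The lowest tail nLRC library was more than 8 times any library of the other groups. Its difference was -3.91 ± 0.82 (SE, adjusted p = 0.0211), and the call was lost without back LRC library 2, tail nLRC library 2 or tail LRC library 3 (largest adjusted p = 0.102). Dlx2 differed by -3.34 ± 0.55 (SE, adjusted p = 0.00487), from -1.98 in tail and 1.36 in back. Without tail nLRC library 2 or tail LRC library 3, 2 genes of the list passed.

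Hair-type keratins of the tail scale were nearly absent from back, so the difference could not be read from them. The list also held genes that are not keratins, and Tchh, Lef1 and Edar were among its 8 tested of 17 genes. The sum over these 8 was 95.9 to 276 CPM in tail LRC, 1112 to 1841 in tail nLRC, 4.85 to 11.5 in back LRC and 11.6 to 25.5 in back nLRC. In tail 3 fell in LRC, with effects of -3.14 ± 0.44 for Krt36, -3.37 ± 0.50 for Krt84 and -3.92 ± 0.79 for Krt90. The difference passed for 0 of the 8 (1 higher at an unadjusted p under 0.05, 1 higher by DESeq2). Krt36 stood at 31.1, 78.7 and 24.7 CPM in tail LRC, 348, 473 and 361 in tail nLRC, 0, 0 and 0 in back LRC and 0, 0 and 0.266 in back nLRC. In back it had reads in 1 library only, so its back effect is hardly determined. The SE of its difference, taken from the effect and the F value of its test, does not show this. Its difference of 0.26 ± 0.52 turned to -2.71 (adjusted p = 0.0113) on exon-only TPM and to -3.04 (adjusted p = 0.00564) on rescaled TPM, both taken as log2(TPM + 1), a scale on which levels near 0 give effects near 0. Krt31 was at or below 1.38 CPM in all libraries.

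Some genes of mitosis stood higher in tail LRC than in tail nLRC, although LRC is the population labelled slow-cycling. Of 30, all tested, 7 rose in tail LRC and 0 fell: Top2a, Cdk1, Aurkb, Bub1, Kif11, Nusap1 and Prc1. In back 0 passed in either direction (1 higher at an unadjusted p under 0.05, 0 by DESeq2). The difference passed for 1, the mitotic kinase Aurkb, at 2.16 ± 0.46 (SE, adjusted p = 0.0217), with a median of 1.01 over the list, estimates above 0 in 30 of 30 and 19 at an unadjusted p under 0.05. DESeq2 called 5 and the replicate block 20, all higher. Kif11, a spindle motor, stood at 109, 43.01 and 65.6 CPM in tail LRC, 26.9, 26.1 and 26.8 in tail nLRC, 12.9, 17.3 and 19.9 in back LRC and 12.6, 19.4 and 18.5 in back nLRC. Its tail groups did not overlap and its back groups did, and its difference was 1.46 ± 0.41 (SE, adjusted p = 0.0897). The summed level was 3451, 1403 and 2198 CPM in tail LRC libraries 1 to 3 against 1141 to 1541 in tail nLRC, 499 to 644 in back LRC and 500 to 685 in back nLRC. Tail LRC library 2 was within the range of the nLRC libraries, and without it 8 genes passed. Without back LRC library 1, back nLRC library 3, tail nLRC library 1 or tail nLRC library 3, or without the tail replicate 3 pair, 0 passed, Aurkb included (largest adjusted p = 0.0937).

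DNA replication genes and cyclin-dependent kinase inhibitors gave no difference that passed. Of 30 replication genes 0 passed, with 0 at an unadjusted p under 0.05 and 0 by DESeq2, at a median of 0.06. Of 11 tested inhibitors and pocket proteins 0 passed, with 1 higher at an unadjusted p under 0.05 and 0 by DESeq2, at a median of -0.05.

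In the insulin-like growth factor list the difference passed for 2 secreted binding proteins, a protease and a signalling adaptor. Of 15 tested of 17 genes, 2 had the higher effect in tail (Pappa and Igfbp2) and 2 the lower (Igfbp3 and Irs1). Igfbp2 (chr1:72824503-72852474, plus strand) stood at 38.5, 20.5 and 58.9 CPM in tail LRC, 120.5, 47.96 and 89.3 in tail nLRC, 0.0562, 0.095998 and 0.0665 in back LRC and 2.71, 15.7 and 8.201 in back nLRC. Back LRC had 4 reads in all, against 562 in back nLRC, and the tail groups overlapped. The effects were -1.13 ± 0.51 (SE, adjusted p = 0.201) in tail and -6.75 ± 0.94 (SE, adjusted p = 0.00645) in back, a difference of 5.62 ± 1.16 (SE, adjusted p = 0.0193) whose size depends on those few reads. The call was lost without any of the 3 back LRC libraries (largest adjusted p = 0.0652) and without the tail replicate 3 pair (adjusted p = 0.0867). It was also lost on rescaled exon-only TPM, where the difference was 2.41 ± 0.721 (SE, adjusted p = 0.111). Irs1, which relays the receptor's signal, stood at 9.601, 7.54 and 21.4 CPM in tail LRC, 89.03, 65.6 and 92.98 in tail nLRC, 64.2, 116 and 150.3 in back LRC and 45.1, 93.4 and 120.2 in back nLRC. Tail LRC was the lowest group, and the difference was -3.05 ± 0.60 (SE, adjusted p = 0.0146). Pappa, a protease that cleaves IGF-binding proteins, differed by 5.36 ± 0.91 (SE, adjusted p = 0.00594) with a tail effect of 3.91.

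In the EGF receptor list the difference passed for 1 of 15 tested of 18 genes, Lrig1, higher in tail; the block gave 4 higher and 1 lower. In the Wnt list, of 31 tested of 34 genes, 3 were higher (Fzd7, Wnt16 and Dkk3) and 2 lower (Fzd10 and Wnt10b), with a median of 0.00, and the block gave 6 and 6. The ligand Wnt16 differed by 2.48 ± 0.54 (SE, adjusted p = 0.0269) and Wnt10b by -2.34 ± 0.52 (SE, adjusted p = 0.0291), and the receptor Fzd10 by -0.95 ± 0.19 (SE, adjusted p = 0.0168). The call of Wnt16 was lost without back LRC library 2, tail LRC library 3 or any of the 3 tail nLRC libraries (largest adjusted p = 0.0886). That of Fzd10 was lost without back LRC library 2, back nLRC library 2 or tail LRC library 3 (0.0579). That of Wnt10b held only without back nLRC library 1, back LRC library 2, tail LRC library 2 or tail nLRC library 3 (0.0833). On exon-only TPM 1 gene of the list was higher and 0 lower.

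In the BMP and TGF-beta list, of 29 tested of 32 genes, 4 were higher and 2 lower, with a median of 0.34 (block 10 and 5). Ltbp1, which stores latent TGF-beta in the matrix, differed by 4.31 ± 0.71 (SE, adjusted p = 0.00487), the co-receptor Tgfbr3 by 1.11 ± 0.16 (SE, adjusted p = 0.00217), the activin subunit Inhbb by 3.44 ± 0.57 (SE, adjusted p = 0.00499) and the ligand Tgfb3 by 2.77 ± 0.54 (SE, adjusted p = 0.0142). Id2, a target of BMP signals, and the ligand Bmp2 were lower, Bmp2 by -1.05 ± 0.26 (SE, adjusted p = 0.0498). Leaving out 1 library gave 3 to 6 higher and 1 or 2 lower. Tgfbr3 stood at 120.3, 122 and 122 CPM in tail LRC, 53.1, 55.2 and 62.98 in tail nLRC, 344, 325 and 287 in back LRC and 344, 313 and 311 in back nLRC. Its 4 groups were tight, with tail nLRC the lowest and the back groups overlapping, and the call was lost on rescaled exon-only TPM (largest adjusted p = 0.0534). In the Hedgehog list, of 11 tested of 14 genes, 1 was higher, the co-receptor Boc at 1.04 ± 0.23 (SE, adjusted p = 0.0284), a call that held only without back LRC library 1, tail LRC library 1 or tail nLRC library 2 (largest adjusted p = 0.0708); the block gave 2. In the Notch list 0 of 13 tested passed, with 2 higher at an unadjusted p under 0.05 and 0 by DESeq2 (block 1 higher).

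Of 60 tested genes of the interfollicular epidermal layers 3 passed for the difference, against 2.9% of all tested genes. Of 22 keratins, integrins and basement membrane genes of the basal layer 0 passed for the difference (3 higher and 6 lower at an unadjusted p under 0.05, 2 and 4 by DESeq2, 2 and 3 with the block). In tail Krt5, Krt14 and Bcam fell in LRC and Krt15 rose, and in back 0 passed (1 higher and 2 lower at an unadjusted p under 0.05, 1 and 1 by DESeq2). Of 18 spinous layer genes, Skint3 was higher and Mt4 lower (block 3 and 5). Of 20 tested of 25 granular layer genes 1, Spink5, was higher at 0.88 ± 0.21 (SE, adjusted p = 0.0438), a call that held only without tail nLRC library 1 (largest adjusted p = 0.123).

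The Skint genes encode butyrophilin-like surface proteins of keratinocytes that shape epidermal gamma-delta T cells. Of 11, all tested, 4 had the higher effect in tail and 0 the lower (Skint3, Skint1, Skint4 and Skint8), and in tail 4 rose in LRC and 0 fell. In back 1, Skint7, rose and 0 fell (3 and 0 at an unadjusted p under 0.05, 1 and 0 by DESeq2), with estimates above 0 in 10 of the 11. At an unadjusted p under 0.05 these were 4 and 0 for the difference and 7 and 0 in tail, and by DESeq2 4 and 0, and 6 and 0. Skint3 (chr4:112232245-112300468, plus strand) stood at 10.01, 9.12 and 10.2 CPM in tail LRC, 0.462, 1.11 and 0.423 in tail nLRC, 11.2, 10.2 and 10.4 in back LRC and 12.5, 13.7 and 15.5 in back nLRC. Tail nLRC was the low group, and the libraries of the other 3 lay between 9.12 and 15.5. Its difference was 4.27 ± 0.38 (SE, adjusted p = 0.000107), and Skint1 differed by 2.25 ± 0.37 (SE, adjusted p = 0.00503). The median of the list was 1.52 on all reads and -0.10 on rescaled exon-only TPM, on which Skint3 and Skint4 were higher (1.64 ± 0.288 and 1.67 ± 0.383) and Skint7 lower (-1.72 ± 0.222, adjusted p = 0.00147). Skint7 on all reads stood at 0, 0.745 and 0.403 CPM in tail LRC, 0, 0 and 0 in tail nLRC, 62.8, 72.1 and 81.6 in back LRC and 17.2, 18.5 and 19.3 in back nLRC, so its tail effect rested on a few reads. The Skint genes are near copies of each other, and reads may be split between them. Without back LRC library 2, tail nLRC library 2 or tail LRC library 3, 2 genes of the list passed. Skint4 also lost its call without back nLRC library 3 or tail nLRC library 1 (largest adjusted p = 0.0679) and Skint8 in 7 of 12 such fits (0.0669), all but those without back nLRC library 3, tail LRC library 1 or 2, or tail nLRC library 1 or 3.

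Glycolysis and hypoxia genes mostly had lower estimates of the effect in tail than in back, with a median of -0.73 and estimates above 0 in 1 of 25 tested of 26. The difference passed for 1, the lactate exporter Slc16a3, at -2.48 ± 0.51 (SE, adjusted p = 0.0186), and 10 were lower at an unadjusted p under 0.05. In tail 5 fell in LRC (Pfkl, Gapdh, Pkm, Ldha and Slc16a3), and in back 0 passed (4 higher at an unadjusted p under 0.05, 0 by DESeq2). The block gave 17 lower and DESeq2 6. Without back LRC library 1 there were 6 and without tail nLRC library 3 there were 3, and without back LRC library 2, back nLRC library 3 or tail LRC library 3 there were 0 (largest adjusted p of Slc16a3 = 0.0594). Genes of oxidative phosphorylation had 0 of 30 past the test and 0 at an unadjusted p under 0.05 (DESeq2 0). Cholesterol synthesis had 0 of 24, with 5 higher at an unadjusted p under 0.05 (DESeq2 0, block 4 higher). Interferon response genes had 0 of 18, with 2 higher at an unadjusted p under 0.05 (DESeq2 0), and clock genes 0 of 19, with 1 higher and 1 lower (DESeq2 0, block 1 and 4).

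Among the immediate early genes 1 of 20 passed, the zinc finger factor Egr2, which also acts in the follicle, and the block gave 7, all higher. Egr2 stood at 78.8, 19.6 and 48.1 CPM in tail LRC, 7.63, 5.31 and 5.71 in tail nLRC, 3.71, 7.73 and 4.78 in back LRC and 9.47, 25.3 and 21.9 in back nLRC. Tail LRC was above tail nLRC in every library and back LRC below back nLRC, and the difference was 4.77 ± 0.69 (SE, adjusted p = 0.00217). Of 11 tested wound and stress genes 1, the matrix protein Tnc, was lower at -2.28 ± 0.32 (SE, adjusted p = 0.00153), with 14.5, 22.4 and 18.5 CPM in tail LRC, 111, 118 and 108 in tail nLRC, 24.3, 18.9 and 16.6 in back LRC and 18.4, 23.1 and 33.3 in back nLRC. Tail nLRC was the only high group. Of 20 tested Hox genes 1, Hoxc13, a regulator of hair keratins, was lower at -2.89 ± 0.50 (SE, adjusted p = 0.00664), with 8.54, 11.2 and 7.66 CPM in tail LRC, 37.6, 68.6 and 37.3 in tail nLRC, 0.731, 0.576 and 0.864 in back LRC and 0.296, 0.712 and 0.479 in back nLRC. It was high in tail nLRC, intermediate in tail LRC and near 1 CPM or below in back. The block gave 1 higher and 2 lower in the wound and stress list and in the Hox list.

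**Figure D4:**
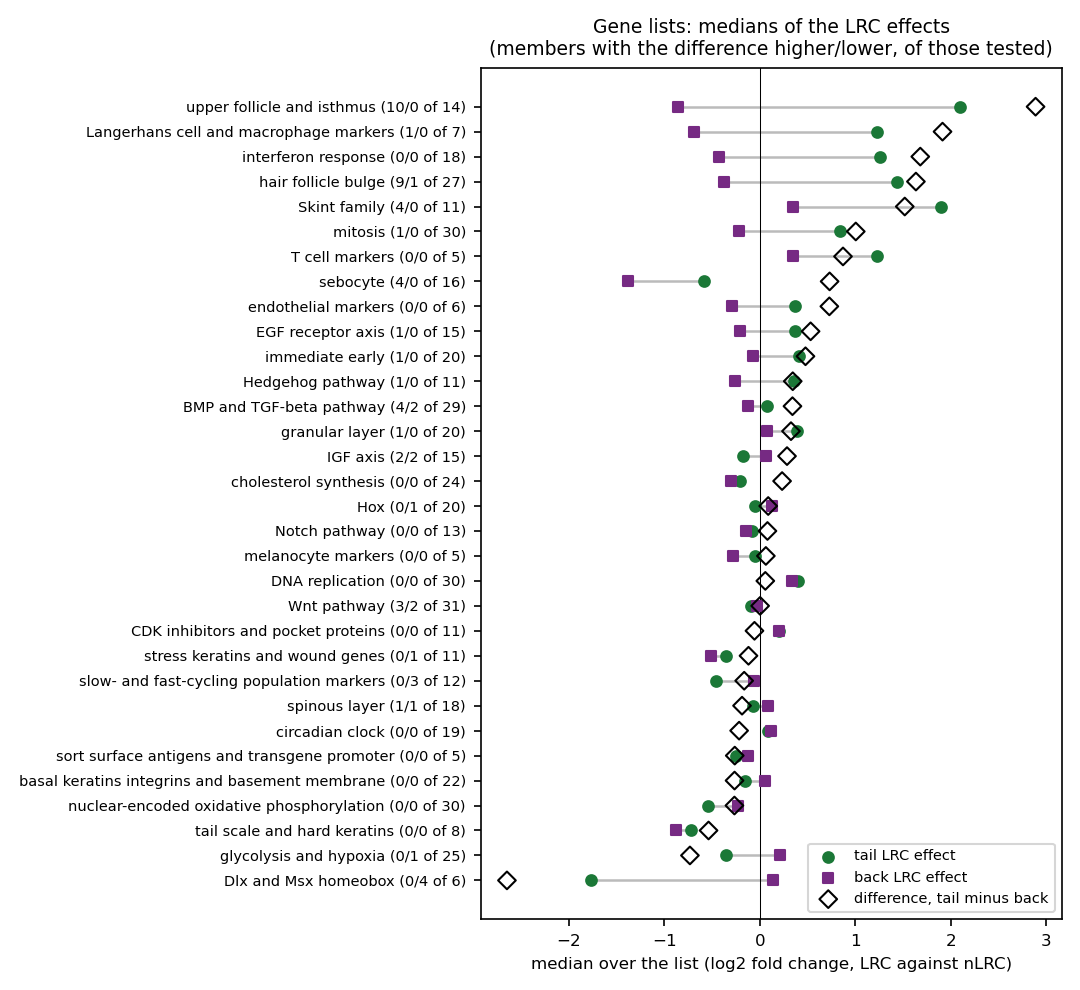
Median LRC effect in tail (circle) and back (square) and median difference (diamond), log2, for the gene lists with at least 5 tested members. The upper follicle list has a median difference of 2.89 and the Dlx and Msx list one of -2.65, and the others lie between them.

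Markers of other cell types passed for the difference at about the share of all genes (2.9%). Of 33 tested markers of fibroblasts, endothelium, melanocytes, T cells, Langerhans cells and macrophages, Merkel cells, muscle and red blood cells, edgeR called 1, Epcam, higher in tail at 2.45 ± 0.31 (SE, adjusted p = 0.00093). Epcam is a surface protein of Langerhans cells and also of follicle keratinocytes. It stood at 48.3, 33.7 and 34.5 CPM in tail LRC, 11.1, 12.98 and 7.396 in tail nLRC, 22.9, 17.2 and 16.3 in back LRC and 29.8, 25.7 and 27.6 in back nLRC, and tail nLRC was the low group. Cd207, which defines Langerhans cells, had 0 to 3 reads in tail libraries and 0 to 13 in back ones, and Cd74 had at most 19 reads in a tail library and 112 to 773 in back. The summed level of the Langerhans and macrophage list was 37.6 to 52.4 CPM in tail LRC and 9.51 to 15.9 in tail nLRC. It was 39.4 to 50.8 in back LRC and 43.4 to 88.7 in back nLRC. Epcam alone made up most of that sum in every tail library, so the tail contrast of the sum is mainly that of Epcam. The median difference of this list was 1.91, with estimates above 0 in 6 of 7 tested genes. At an unadjusted p under 0.05 it had 3 higher and 0 lower for the difference. The fibroblast, T cell and muscle lists had 1 higher each and the endothelial list 1 lower. Among defining markers of the other types, Sox2 was at 0 in all 12 libraries, Col1a1 had at most 8 reads in a library, Cdh5 at most 16 and Krt20 at most 2. Reads of some markers were concentrated in tail LRC library 2. Emcn had 29 reads there and at most 4 in any other library, Pdgfrb 27 and 5, and Adgre1 28 and 10. The tested Merkel cell marker Piezo2 stood at 12.1 CPM there and at most 2.42 elsewhere. That library also had the highest fibroblast, endothelial and muscle list sums. It did not have the highest melanocyte, T cell, Langerhans and macrophage or red blood cell sums. Other listed markers had more reads: Pecam1, which endothelium shares with some blood cells, had 214 to 298 in tail libraries and 13 to 39 in back, the melanocyte factor Mitf 280 to 559 and 1313 to 2006, and the T cell surface protein Thy1 344 to 739 and 1050 to 2639. Within tail, the fibroblast marker Col6a1 was higher in LRC at 3.06 ± 0.61 (SE, adjusted p = 0.0111) and Thy1 lower at -1.04 ± 0.16 (SE, adjusted p = 0.0021), while neither passed in back or for the difference. Fibroblast markers did not move together in tail: of 4 tested, 1 was higher and 1 lower at an unadjusted p under 0.05. Dcn had 2 to 14 reads in tail LRC libraries and 21 to 72 in tail nLRC ones, and Col6a2 13 to 34 and 0 to 7. Col6a1 had 133 to 364 reads in back libraries. The part of other cell types in the differences above was not tested.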

How the data were processed

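RNA of sorted basal cells was sequenced with a kit for stranded total RNA of low input, per the labels' protocols. The deposited tables hold, per the file headers, raw read counts per gene (exons and introns together), TPM and RPKM (both per exon length, by the authors). The genome build was mm10 per the submitters' processing notes; aligner, counting program and use of strand are not stated there. RPKM times GENCODE exon length, scaled on 130 genes without introns, gave the exon part of the reads, from which the intron shares were estimated. The tables listed 53715 names in back and 49585 in tail; the 47436 shared ones were analysed.

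Counts were fitted for the 12 libraries with edgeR 4.0.16 (R 4.3.3; TMM scaling, 4 group means, quasi-likelihood test, genes kept by filterByExpr at a minimum count of 10 and total of 15), with Benjamini-Hochberg adjustment over 15560 genes and calls at adjusted p under 0.05. The model was tested on simulated data of 15149 genes, where it recovered 64% of 100 differences of 2 (log2) and 13% of 100 of 1, with 5 false calls among 82. The changed genes were drawn from those with a mean of at least 20 reads per library. The simulated libraries were independent, without the shared deviations of same-numbered libraries given below, so these rates need not hold for the real data. Alternatives were DESeq2 1.42.0, limma 3.58.1 on log2(TPM + 1) or log2(TPM + 0.1) for genes with TPM of at least 1 in 3 libraries, median-of-ratios scaling, no filter, 20 basal libraries, 4 ribosomal RNA-like features left out, libraries left out and the replicate block. TMM rescaling of TPM was added after seeing the data. For edgeR, each SE is the size of the effect divided by the square root of the F value of its test. It can understate the uncertainty of genes with almost no reads in a group.

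Same-numbered LRC and nLRC libraries of a tissue deviated together. Their deviations from group means correlated at 0.500, 0.553 and 0.273 in tail and 0.362, 0.259 and 0.363 in back. No label says what a replicate number stands for. The main fit used no pairing, and the replicate block did, so the SE and adjusted p given for the main fit leave it out. Replicates of a group differed beyond counting noise, by a chi-square of 25.1 or more over its degrees of freedom.

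The comparison and the 36 gene lists were chosen with earlier results of these data known, so the lists are described by counts and medians and not tested. Named genes were the 12 largest differences in each direction (from an average log2 CPM of 3 on), up to 10 with opposite effects, whatever their level, up to 4 members per list by p, and the population markers and sort antigens; predicted, mitochondrial and ribosomal protein genes were left out. List members named beyond these, to spell out small counts or as examples, were chosen after their values were seen. Positions are from GENCODE M21 and promoters from RefSeq GRCm38.p6. Other libraries of the series were not analysed here beyond the 20 basal ones.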

Additional observations from a re-analysis of the deposited data

Results flagged for a closer look

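The LRC effect differed between tail and back in 452 genes by the test of the difference itself, and 32 of these passed the test in both tissues in opposite directions. Of those, the 10 with the smallest p were Dpysl3 with a difference of 4.70 (log2), Msrb3 with 4.89, Nebl with 4.73, Fzd7 with 3.50, Arhgap24 with 5.75, Ptprk with 5.32, Adgrl2 with 4.74, Igsf9 with 2.69, Acsf2 with 3.46 and Alcam with 5.06. In each the LRC libraries lay above nLRC in tail and below nLRC in back, and the groups of 3 overlapped in neither tissue. The genes were chosen for passing in both tissues, so this separation adds no support. Over all tested genes, all LRC libraries lay above nLRC in 13.7% in tail and below them in 8.08% in back.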

How the results depend on the processing

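Of 63 named genes past the test of the difference, 47 passed with each library left out in turn, 37 under all 22 settings, and 0 changed sign. For the difference, the tail effect and the back effect, DESeq2 called 859, 1863 and 385 genes, the fit without a low-count filter 1303, 2058 and 568, the replicate block 1780, 3785 and 791, and the fit without the tail replicate 3 pair 211, 306 and 62. All 452 genes were among the calls of DESeq2 and of the block, 269 among those on log2(TPM + 1) and 209 without that pair. Leaving out 1 library gave 303 to 445, 400 to 922 and 41 to 156 genes. The cause of these shifts was not tested. Krt36 turned from 0.26 to -2.71 on TPM and -3.04 on rescaled TPM. On rescaled TPM the medians of lists were 1.11 for the bulge, 2.36 for the upper follicle, 0.041 for sebocytes, -1.76 for Dlx and Msx, -0.097 for Skint and 0.371 for Langerhans cells and macrophages. On unscaled TPM they were -1.67 for Dlx and Msx, 0.082 for oxidative phosphorylation, 0.597 for cholesterol synthesis, -0.194 for Skint and 0.421 for Langerhans cells and macrophages, and the median of all genes was 0.167. Without the filter fibroblast markers had a median of 2.83, and without the 4 ribosomal RNA-like features muscle markers had 1.25. The tail libraries are the shallower ones, and genes with few reads in a group, such as Igfbp2 in back LRC, have differences that depth limits.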
